A study of Homo sapiens with 6 samples.

Results

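NOCT (nocturnin) and its 5 closest relatives among human nucleases, CNOT6, CNOT6L, ANGEL1, ANGEL2 and PDE12, were followed by RNA-seq in 6 HEK293 lines. The 6 genes were taken by symbol from the 58395 genes of the deposited tables, together with the 2 rows that count reads of the expression constructs. HEK293 is an established line of human embryonic kidney origin. Each library came from a separate clonal line: GST lines 2, 8 and 9 expressed GST-3F, a tagged glutathione S-transferase that served as the control protein, and NOCT lines 4, 11 and 12 expressed NOCT ∆(2-15)-3F, nocturnin without residues 2 to 15 and with the same tag. All 6 lines were grown for 3 days in the same medium. A line is 1 clone, so differences that arose between clones enter the spread between the 3 lines of a group. The promoter of the constructs and the site of their insertion are not given in the sources used here. The comparison asks whether lines carrying this form of nocturnin differ from control lines in RNA of NOCT itself and of its relatives.

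Proteins of this group share the endonuclease/exonuclease/phosphatase (EEP) fold, in which acidic residues and histidines hold metal ions and cleave phosphate ester bonds. Nocturnin is under circadian control in many tissues and removes the 2′-phosphate of NADP and NADPH; its amino-terminal segment directs the protein to mitochondria. CNOT6 and CNOT6L are the alternative CCR4 subunits of the CCR4-NOT complex, which shortens the poly(A) tails of mRNAs. ANGEL1 binds the cap-binding protein eIF4E, ANGEL2 removes 2′,3′-cyclic phosphates from RNA ends, and PDE12 works in mitochondria, where it removes poly(A) from RNA and also degrades 2-5A, a messenger of the antiviral response.

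The construct lacks the segment of residues 2 to 15, and its row is longer than the nocturnin codons that remain. Counted in the GENCODE 29 transcript that encodes 431 residues, removing these 14 codons leaves 1251 coding bases without the stop codon. The lengths behind the deposited levels give the construct row 1795 bases, which is 544 bases more. The sequence of these 544 bases, which may include the stop codon and the tag, is not given in the sources used here. Of the 1903 windows of 50 bases (the read length) in the transcript, 1199 (63.0%) lie wholly in the codons that the construct keeps and 704 do not. If the construct uses the reference codons, which the labels do not say, reads from those 1199 windows match both the gene row and the construct row. How much of either row was lost or shared in this way was not tested.

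The 6 proteins keep the same end of the catalytic domain. Each contains a last Ser-Asp-His triplet near its carboxy terminus, and the codons of that triplet are printed in capitals inside 39 bases of the last exon, read in the sense direction from GENCODE 29 transcripts on GRCh38. They show the shared site under different codons: serine is TCA or TCT, aspartate GAC or GAT, and histidine CAC or CAT. The stretches lie at chr4:139045397-139045435 (plus strand) for NOCT, chr5:180574096-180574134 (plus) for CNOT6 and chr4:77720497-77720535 (minus) for CNOT6L. For ANGEL1 the stretch is chr14:76789258-76789296 (minus), for ANGEL2 chr1:212995062-212995100 (minus) and for PDE12 chr3:57559948-57559986 (plus).
NOCT: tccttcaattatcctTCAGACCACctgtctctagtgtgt
CNOT6: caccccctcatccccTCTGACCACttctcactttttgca
CNOT6L: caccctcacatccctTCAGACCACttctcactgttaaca
ANGEL1: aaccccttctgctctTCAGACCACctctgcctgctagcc
ANGEL2: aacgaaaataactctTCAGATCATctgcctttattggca
PDE12: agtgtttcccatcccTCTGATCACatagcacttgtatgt
Between 10 and 26 residues follow the triplet. Translated from these transcripts and aligned in pairs, CNOT6 and CNOT6L were the closest relatives, with 437 of 550 aligned residues identical (79.5%). ANGEL1 and ANGEL2 shared 206 of 416 (49.5%), and NOCT shared 31.3% to 35.2% with each of the other members. No window of 50 bases was common to 2 members, so reads of one member could not be counted to another at full match.

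The libraries held 19729745 to 24422406 reads counted to genes. All 6 members passed the filter on low counts and were among the 17261 genes tested. The biological coefficient of variation over all genes tested was 19.7%, and 10 of the 17261 genes (0.0579%) passed an adjusted p of 0.05 in edgeR.

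In every line, the row of the construct named by the label held more reads than the other construct row. The GST construct had 88, 46 and 50 reads in GST lines 2, 8 and 9. It had 1 read in NOCT line 4 and none in lines 11 and 12. The totals of 184 and 1 reads, each scaled to its libraries, gave a ratio of 205 with an exact 95% interval of 36.3 to 8129, which covers counting error only. The construct of nocturnin had 74, 46 and 82 reads in NOCT lines 4, 11 and 12, and 4, 7 and 3 reads in GST lines 2, 8 and 9. The totals of 202 and 14 reads gave a ratio of 13.0 (exact 95% interval 7.55 to 24.2, counting error only). Where the 14 reads in the GST lines came from was not tested. Both rows separated the groups without overlap. In edgeR the adjusted p was 0.0159 for the GST construct and 0.0317 for that of nocturnin. The log2 fold change of the nocturnin construct was 3.69 ± 0.43 (SE, n = 3 lines against 3); the first of these calls was lost without 4 of the 6 lines and the second without 5 of them, each taken out alone. These rows rest on few reads.

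**Figure D1:**
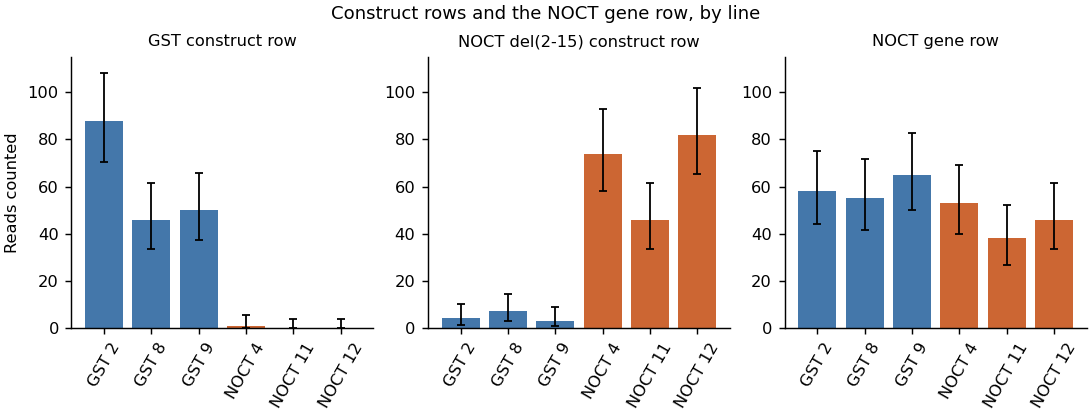
Reads counted to the GST construct, to the NOCT ∆(2-15) construct and to the NOCT gene in each of the 6 lines (vertical axis, reads; blue, GST lines; orange, NOCT lines; bars with exact 95% Poisson intervals). The GST construct stays at 0 or 1 read in the NOCT lines, the NOCT construct at 3 to 7 reads in the GST lines, and the NOCT gene row runs from 38 to 65 reads.

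The NOCT gene (ENSG00000151014, chr4:139015789-139045939, plus strand) was the least abundant member. Its row held 58, 55 and 65 reads in GST lines 2, 8 and 9 and 53, 38 and 46 reads in NOCT lines 4, 11 and 12. As CPM, the count relative to the size of the library, these were 3.06, 2.55 and 3.19 in the GST lines and 2.08, 1.70 and 2.31 in the NOCT lines. Every NOCT line lay below every GST line, with NOCT line 11 the lowest. Counting error alone is wide at this depth: the exact 95% Poisson interval was 1.20 to 2.34 CPM for NOCT line 11, 1.69 to 3.08 for NOCT line 12 and 1.92 to 3.32 for GST line 8, and these intervals overlap. The group means were 2.93 ± 0.34 CPM (SD, n = 3) in GST lines and 2.03 ± 0.31 CPM (SD, n = 3) in NOCT lines. The log2 fold change was −0.53 ± 0.24 (SE) with an adjusted p of 0.379 in edgeR, and an exact two-sided permutation test gave 0.1, the smallest p that 3 lines against 3 allow. NOCT did not pass the test, and its p ranked 2701 among the 17261 genes. In bulk RNA, fewer cells with a transcript and less of it per cell cannot be told apart.

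The construct was set beside the gene on the TPM scale, which also divides by the length of the transcript. The gene stood at 3.28, 2.97 and 3.54 TPM in GST lines 2, 8 and 9, and at 2.57, 2.02 and 2.61 TPM in NOCT lines 4, 11 and 12. The construct stood at 5.01, 3.41 and 6.49 TPM in NOCT lines 4, 11 and 12. The ratio of construct to gene was thus 1.95, 1.69 and 2.49 in those lines (2.04 ± 0.41, SD, n = 3), and 0.0962, 0.178 and 0.0644 in GST lines 2, 8 and 9. Among the NOCT lines, line 11 had the lowest level of both rows. Gene and construct reads added up to 5.05 ± 1.33 CPM (SD, n = 3) in NOCT lines against 3.16 ± 0.25 CPM in GST lines. The NOCT gene row was low on the TPM scale: the median gene tested had 10.2 TPM, and this row stood at the 23.7th percentile. If the construct uses the reference codons, reads matching both rows could be missing from these levels and ratios, which was not tested. Reads from any sequence that the 2 constructs share, such as that of the tag, could be missing from the construct row too.

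The other 5 members were well expressed, at 11.1 to 26.5 TPM in every line. By their mean over the 6 lines the order was CNOT6 (23.8 TPM), ANGEL2 (23.0), PDE12 (16.7), CNOT6L (14.8), ANGEL1 (13.9) and NOCT (2.83). CNOT6 and ANGEL2 took the first 2 places in all 6 lines and changed places between lines, so they did not differ beyond their spread. PDE12, CNOT6L and ANGEL1 also changed places among themselves. NOCT was last in all 6. The 6 genes together summed to 94.1 ± 2.72 TPM (SD, n = 3) in GST lines and 96.2 ± 4.90 TPM in NOCT lines, and the sums overlapped. NOCT made up 3.475% ± 0.350 of that sum in GST lines and 2.499% ± 0.361 in NOCT lines.

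**Figure D2:**
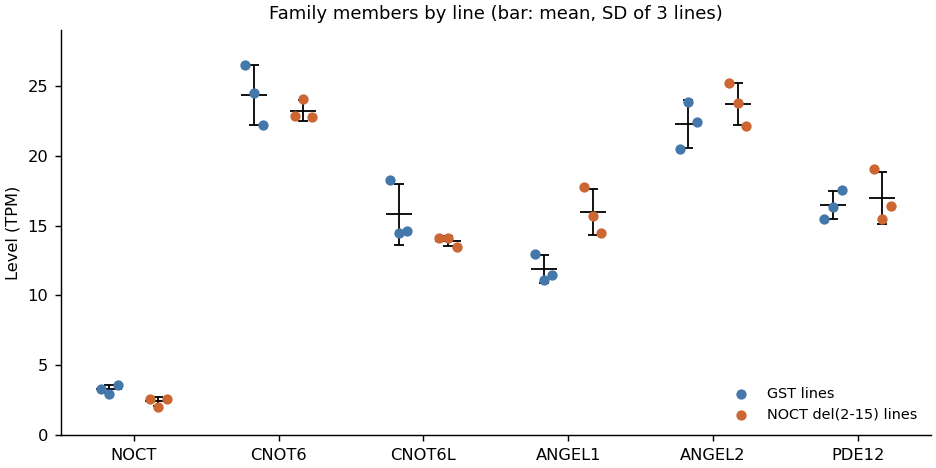
Levels of the 6 members in TPM (vertical axis) in the 3 GST lines (blue points) and the 3 NOCT lines (orange points), with the mean and SD of each group in black. NOCT lies at 2.02 to 3.54 TPM in all lines, CNOT6 and ANGEL2 at 20.5 to 26.5, and the groups are apart for NOCT, CNOT6L and ANGEL1.

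Across the family, none of the 6 members passed the adjusted threshold in edgeR, in DESeq2 or in limma on the TPM values. ANGEL1 alone had an unadjusted p under 0.05 in edgeR, beside 13.9% of all genes tested (2399). The CPM of the groups did not overlap for 3 members, NOCT and CNOT6L lower and ANGEL1 higher in NOCT lines, beside 20.0% of all genes tested. The fold change was below 0 for 4 members and above 0 for 2. Their median log2 fold change was −0.10, against 0.00 over all genes tested.

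The deadenylase subunits were examined next. CNOT6 (ENSG00000113300, chr5:180494412-180578405, plus strand) had 64.9, 55.4 and 52.5 CPM in GST lines 2, 8 and 9 and 48.5, 53.4 and 52.9 CPM in NOCT lines 4, 11 and 12. GST line 2 was the highest and the other 5 lines lay close together, so the groups overlapped. The log2 fold change was −0.16 ± 0.11 (SE, edgeR, adjusted p = 0.556), and the exact permutation p was 0.3. CNOT6L (ENSG00000138767, chr4:77713387-77819615, minus strand) had 63.7, 46.6 and 49.2 CPM in the GST lines and 42.7, 44.4 and 44.5 CPM in the NOCT lines, in the same order. Again GST line 2 stood highest, and here all 3 NOCT lines lay below all GST lines. The log2 fold change of CNOT6L was −0.28 ± 0.13 (SE, edgeR, adjusted p = 0.397) with the smallest possible exact permutation p of 0.1. Without GST line 2 the log2 fold changes were −0.13 for CNOT6L and −0.064 for CNOT6. CNOT6 exceeded CNOT6L in every line, by 1.45, 1.69 and 1.52 times on the TPM scale in GST lines 2, 8 and 9 and by 1.62, 1.71 and 1.69 times in NOCT lines 4, 11 and 12. The ratios overlapped between the groups. Part of CNOT6L cannot be counted uniquely: 637 of its 9491 exon windows of 50 bases (6.71%) recur in its pseudogene CNOT6LP1. None of the 6821 windows of CNOT6 recurs in another gene. The share that recurs in other genes was 4.56% for NOCT (114 of 2501 windows), 7.67% for ANGEL1, 0.57% for ANGEL2 and 1.8% for PDE12.

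The ANGEL pair was examined after the deadenylases. ANGEL1 (ENSG00000013523, chr14:76786178-76826246, minus strand) had 31.0, 24.4 and 26.5 CPM in GST lines 2, 8 and 9 and 36.7, 33.9 and 32.8 CPM in NOCT lines 4, 11 and 12. All NOCT lines lay above all GST lines, with GST line 2 nearest to them. The log2 fold change of 0.34 ± 0.12 (SE) had an unadjusted p of 0.0263 and an adjusted p of 0.287 in edgeR, and the exact permutation p was again 0.1. ANGEL2 (ENSG00000174606, chr1:212992182-213015826, minus strand) had 55.5, 59.7 and 58.7 CPM in the GST lines and 59.2, 58.4 and 56.9 CPM in the NOCT lines. ANGEL2 was the steadiest member: the SD within groups was 0.044 on the log2 CPM scale, at the 1.23th percentile of the genes tested, whose median was 0.23. Its log2 fold change was 0.01 ± 0.08 (SE, edgeR, adjusted p = 0.986). Taken relative to the median of all genes, it changed sign under 4 of 13 other settings. The ratio of ANGEL1 to ANGEL2 in TPM was 0.634, 0.465 and 0.513 in GST lines 2, 8 and 9. It was 0.704, 0.658 and 0.655 in NOCT lines 4, 11 and 12, with GST line 2 close to NOCT line 12. ANGEL1 shares 547 of its 6414 exon bases (8.53%) with VASH1-AS1, a long noncoding RNA annotated on the same strand, so reads there could not be given to one gene.

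PDE12 (ENSG00000174840, chr3:57556276-57566844, plus strand) had 51.6, 50.3 and 56.4 CPM in GST lines 2, 8 and 9 and 55.0, 46.5 and 51.7 CPM in NOCT lines 4, 11 and 12. The lowest and the second highest values both fell in NOCT lines. The log2 fold change was −0.05 ± 0.10 (SE, edgeR, adjusted p = 0.869), and the exact permutation p was 0.7. Relative to the median of all genes, its sign changed under 2 of 13 other settings, the omission of GST line 9 and that of NOCT line 11. The fold changes in the authors' deposited table, shrunken by their method, ran in the same order of genes: −0.37 for NOCT, −0.25 for CNOT6L, −0.15 for CNOT6, −0.05 for PDE12, 0.00 for ANGEL2 and 0.30 for ANGEL1. None of the 6 passed an adjusted p of 0.05 in the authors' deposited table, where 2.87% of the genes with an adjusted p did; the smallest of the 6 was 0.285, for ANGEL1.

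The genes around each member were then measured in the same lines. For each member, up to 50 tested genes on either side that averaged 1 CPM or more were taken, and the median of their log2 deviations from the mean of the 6 lines was computed in each line. For ANGEL1 the gene deviated by 0.02, −0.32 and −0.21 in GST lines 2, 8 and 9, and its 100 neighbours by 0.06, −0.37 and −0.20. In NOCT lines 4, 11 and 12 the gene deviated by 0.26, 0.15 and 0.10 and the neighbours by 0.17, 0.14 and 0.16. The 482 genes used on chromosome 14 as a whole had medians of 0.091, −0.32 and −0.15 in GST lines 2, 8 and 9. In NOCT lines 4, 11 and 12 these were 0.18, 0.15 and 0.089, so the groups overlapped. The pattern was thus similar for ANGEL1, its neighbours and the whole chromosome, and its cause was not tested. The difference between the groups was 0.34 for the gene, 0.33 for its neighbours and 0.27 for the chromosome. After removal of the neighbours' level the fold change in edgeR was 0.02 ± 0.09 (log2, SE, adjusted p = 0.953).

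CNOT6L, on chromosome 4, also lay close to its neighbours in each line. The gene deviated by 0.41, −0.04 and 0.03 in GST lines 2, 8 and 9 and its neighbours by 0.36, −0.07 and 0.08. In NOCT lines 4, 11 and 12 the gene was at −0.17, −0.11 and −0.11 and the neighbours at −0.12, −0.12 and −0.12. GST line 2 was the high line for both. With the neighbours' level removed, the log2 fold change of CNOT6L in edgeR was −0.02 ± 0.07 (SE, adjusted p = 0.908), against −0.28 before.

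NOCT lies on the same chromosome as CNOT6L, and its neighbours differed between the groups by −0.23. They stood at 0.37, −0.07 and 0.05 in GST lines 2, 8 and 9 and at −0.12, −0.12 and −0.10 in NOCT lines 4, 11 and 12. The NOCT gene itself stood at 0.33, 0.07 and 0.40 and at −0.22, −0.51 and −0.07. It followed its neighbours in GST line 2 and NOCT line 12 and departed from them most in NOCT line 11 and GST line 9. Removal of their level left −0.30 ± 0.24 on the log2 scale (SE, adjusted p = 0.599 in edgeR). The 530 genes used on chromosome 4 as a whole differed by a median of −0.19. For CNOT6 (60 neighbours), ANGEL2 and PDE12 the fold changes after removal were −0.04, −0.09 and −0.00. The neighbours of CNOT6, ANGEL2 and PDE12 differed between the groups by −0.12, 0.10 and −0.04. CNOT6, ANGEL2 and PDE12 themselves differed by −0.15, 0.01 and −0.05.

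**Figure D3:**
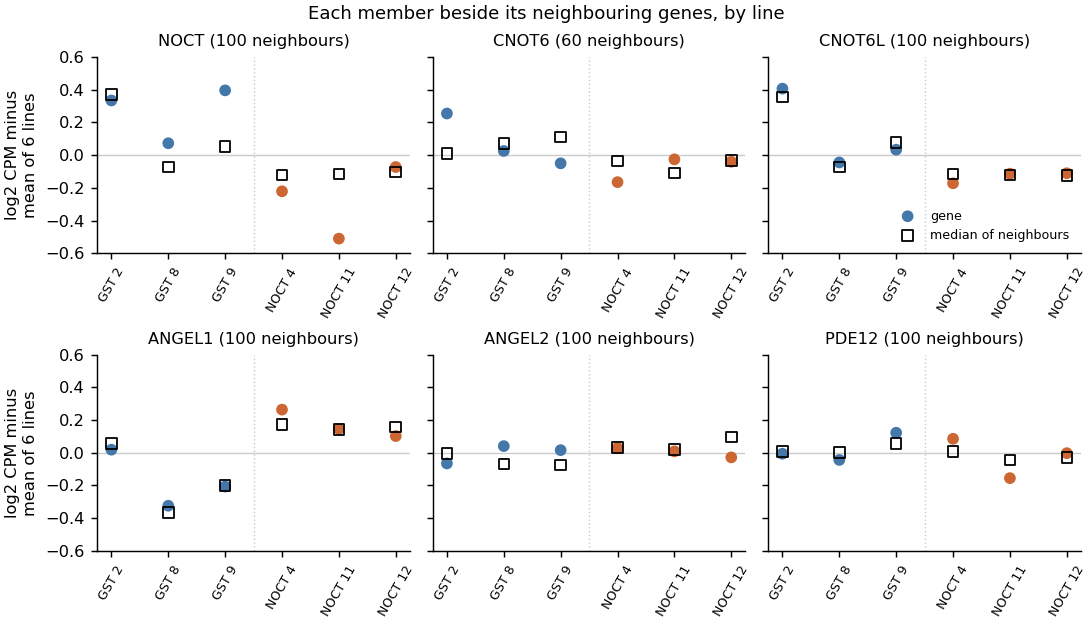
Deviation of each member (filled circles; blue, GST lines; orange, NOCT lines) and of the median of its neighbouring genes (open squares) from the mean of the 6 lines, in log2 CPM (vertical axis), by line. For ANGEL1 and CNOT6L circles and squares nearly coincide in every line, and for NOCT they part by about 0.3 to 0.4 in GST line 9 and NOCT line 11.

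**Figure D4:**
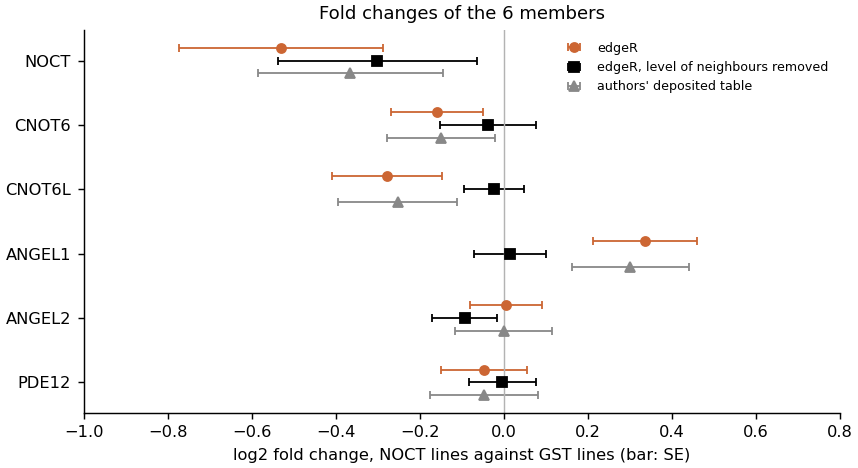
Log2 fold changes of the 6 members, NOCT lines against GST lines (horizontal axis; bars, SE), from edgeR (circles), from edgeR with the level of neighbouring genes removed (squares) and from the authors' deposited table (triangles). ANGEL1 goes from 0.34 to 0.02 and CNOT6L from −0.28 to −0.02 when the neighbours' level is removed, and NOCT from −0.53 to −0.30.

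The nearest single genes varied more than these medians. They were the nearest tested genes with a symbol and a mean of at least 1 CPM, and lay up to 773 kb away (SLC7A11). Beside NOCT, SLC7A11, the cystine transporter, differed by −1.45 ± 0.36 on the log2 scale (SE, adjusted p = 0.184 in edgeR), and ELF2, an ETS-family transcription factor whose span overlaps that of NOCT, had −0.17. Beside CNOT6, GFPT2, an enzyme of hexosamine synthesis, had −1.003 ± 0.18 (SE, edgeR, adjusted p = 0.0980) and FLT4, a receptor for vascular growth factors, −0.36. CCNG2 and MRPL1 beside CNOT6L had −0.15 and −0.25. VASH1-AS1, which overlaps ANGEL1, had 0.45 ± 0.20 (SE, edgeR, adjusted p = 0.371), whereas IRF2BPL on the other side had −0.05. The flanking genes of ANGEL2 (VASH2 at 0.03 and RPS6KC1 at 0.18) and of PDE12 (APPL1 at −0.05 and ARF4 at 0.05) were close to 0. None of these 12 genes passed the adjusted threshold.

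Genes whose levels ran most closely with a member over the 6 lines were then listed, by Pearson's r of log2(TPM + 0.1) among 13638 genes. With so few lines and so many genes, these values describe the 6 libraries only. For NOCT they were ABRAXAS1, a subunit of a BRCA1 complex that is also encoded on chromosome 4 (r = 0.98), PPARGC1B, a coactivator of mitochondrial genes (0.98), BTBD2 (0.97), SHMT2, the mitochondrial serine hydroxymethyltransferase (0.97), and KLF15, a transcription factor (0.97). For CNOT6L both genes, WDFY3 and SMARCAD1 (each 0.99), lie on chromosome 4, and for ANGEL1 1 of 2, TMX1, lies on chromosome 14, the other being CRACR2B. The closest to CNOT6 were the pseudogenes CYP4F26P and TVP23CP1 (0.98 and 0.97), to ANGEL2 NDRG3 and PPME1 (0.997 and 0.996), and to PDE12 ELOC and ADAT3 (0.99 each). Among the members themselves the closest pair was CNOT6 and CNOT6L (r = 0.81 over 6 lines), for which GST line 2 was the high line in both.

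Genes that work with the members were examined as 4 lists. None of their genes passed the adjusted threshold in edgeR, in DESeq2 or in limma on TPM, and the median over all genes tested was 0.00. Of the 16 CCR4-NOT subunits and other deadenylases, all tested, 11 were higher and 5 lower in NOCT lines, with a median log2 fold change of 0.08 and 2 genes with an unadjusted p under 0.05, beside 13.9% of all genes tested. TOB2, which brings the deadenylase to its targets, had 48.8, 53.7 and 51.6 CPM in GST lines 2, 8 and 9 and 61.7, 63.8 and 67.1 CPM in NOCT lines 4, 11 and 12. That is 0.32 ± 0.09 on the log2 scale (SE, edgeR, adjusted p = 0.204), and 0.07 with its neighbours' level removed. CNOT3, a subunit of the complex, had 66.2, 66.5 and 68.2 CPM against 88.6, 81.0 and 76.8 CPM. That is 0.29 ± 0.09 (log2, SE, edgeR, adjusted p = 0.229), and 0.26 with neighbours removed. In both genes the groups did not overlap, as in 20.0% of all genes tested. Genes named from each list had its smallest p-values, which favours groups that lie apart. CNOT9, another subunit, had −0.27 ± 0.16 with overlapping groups, and −0.12 with neighbours removed.

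Of 19 other EEP-fold enzymes, 18 were tested (DNASE1L3 was not), 9 lay on each side of 0, 1 had an unadjusted p under 0.05 (13.9% over all genes tested), and the median was 0.01. SYNJ1, a phosphoinositide phosphatase of synaptic vesicle recycling, had 34.9, 35.2 and 32.4 CPM in GST lines 2, 8 and 9 and 43.3, 44.8 and 40.6 CPM in NOCT lines 4, 11 and 12. The groups did not overlap (20.0% over all genes tested). The log2 fold change was 0.33 ± 0.10 (SE, edgeR, adjusted p = 0.221), and 0.41 with the neighbours' level removed. Its relative SYNJ2 had 0.36 ± 0.19 and INPP5E, a phosphatase of primary cilia, −0.35 ± 0.16, both with overlapping groups; with neighbours removed these were 0.32 and −0.06.

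Nocturnin's substrates are made and used by the NADP and NADPH enzymes. Of 15, 14 were tested (ME3 was not), 7 lay on each side of 0, 2 had an unadjusted p under 0.05 (13.9% over all genes tested), and the median was −0.03. HDDC3, another NADPH phosphatase, had 17.4, 18.0 and 19.1 CPM in GST lines 2, 8 and 9 and 23.0, 20.2 and 24.4 CPM in NOCT lines 4, 11 and 12. The groups did not overlap (20.0% over all genes tested). The difference was 0.31 ± 0.13 (log2, SE, adjusted p = 0.334 in edgeR), and 0.18 with neighbours removed. ALDH1L1, a folate enzyme that reduces NADP, had 0.84 ± 0.37 at 1.42 and 2.54 CPM, with overlapping groups, and 0.88 with neighbours removed.

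RNA ends and 2-5A, the substrates of ANGEL2 and PDE12, were covered by 17 genes, of which 14 were tested (OAS1, OAS2 and OASL were not). Here 8 were higher and 6 lower, 2 had an unadjusted p under 0.05 (13.9% over all genes tested), and the median was 0.05. RTCB, the RNA ligase that joins tRNA exons, had 71.9, 78.0 and 85.8 CPM in GST lines 2, 8 and 9 and 116, 106 and 94.3 CPM in NOCT lines 4, 11 and 12. The groups did not overlap (20.0% over all genes tested). The difference of 0.42 ± 0.11 (log2, SE, adjusted p = 0.194 in edgeR) became 0.12 with the neighbours' level removed. RTRAF, of the same ligase complex, had 0.27 ± 0.12, which became −0.06.

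**Figure D5:**
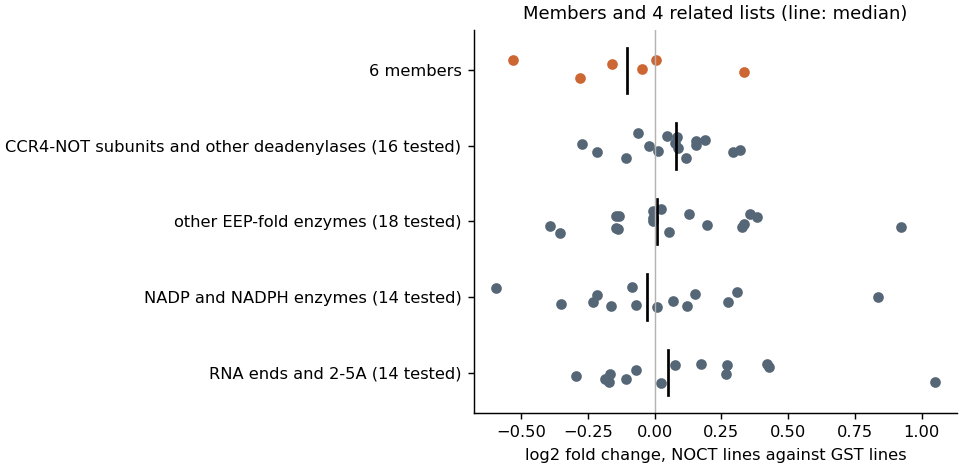
Log2 fold changes, NOCT lines against GST lines (horizontal axis), of the 6 members (orange) and of the tested genes of the 4 lists (grey), each point 1 gene, with the median as a black line. The medians lie between −0.10 and 0.08.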

How the data were processed

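RNA from 6 clonal HEK293 lines was depleted of ribosomal RNA, given ERCC spike-ins and sequenced as strand-specific 50 bp reads, per the labels' protocols. The submitters' processing notes name cutadapt 1.8.1, Trimmomatic 0.33, STAR 2.5.2b, HTSeq 0.6.1p1, DESeq2 1.16.1 and GRCh38. The deposited counts give the reads assigned to each gene as whole numbers; rows naming no feature (42.9% to 47.1% of the reads in a file, including 13.3% to 14.6% without a unique position) were left out. The authors' deposited TPM values use 1 length per gene, equal within 0.1% to the GENCODE 29 exon length for 97.6% of 34473 genes. The authors also deposited a comparison table with log2 fold changes, p-values and adjusted p-values; its file name calls the fold changes shrunken, and their direction was taken from the construct rows.

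Counts were fitted with edgeR 4.0.16 (R 4.3.3; filterByExpr, TMM, quasi-likelihood test, Benjamini-Hochberg over 17261 genes; construct rows were added to the same fit). The threshold was an adjusted p of 0.05, SEs came from the F statistic, and the exact permutation tests were two-sided over log2(CPM + 0.1). The fit was tested on simulated data, with changes larger than those of the members and only in genes more abundant than NOCT. Alternatives were DESeq2 1.42.0, limma 3.58.1 on log2(TPM + 1) and log2(TPM + 0.1), other scalings, no filter, removal of the neighbours' level, and leaving out each line. Protein alignments used Biopython 1.88 (local, BLOSUM62) on translations of GENCODE 29 transcripts. Replicates were separate clonal lines with 1 library each. Named genes were the members, the 3 smallest p-values of each list (of which 2 genes are not reported here), the nearest genes, and the most correlated genes (5 for NOCT, 2 for each other member). The members and lists were chosen with earlier results of these data known.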

Additional observations from a re-analysis of the deposited data

How the results depend on the processing

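NOCT (log2 fold change −0.63 to −0.30, adjusted p 0.208 to 0.705), CNOT6 (−0.22 to −0.012), CNOT6L (−0.37 to −0.023) and ANGEL1 (0.015 to 0.48, adjusted p 0.114 to 0.953) kept their direction and did not pass the threshold under any of 13 alternatives. No member passed it under any of them. Spike-in scaling moved the median of all genes from 0.00 to 0.15, and limma on TPM moved it to 0.07 and 0.08. ANGEL2 was below 0 with median-ratio scaling (−0.0021), DESeq2 (−0.0021), no filter (−0.0022) and the neighbours' level removed (−0.093), and ran from −0.025 to 0.021 when single lines were left out. PDE12 was above 0 with spike-in scaling (0.10), limma on log2(TPM + 1) (0.036) and on log2(TPM + 0.1) (0.038), and ran from −0.11 to 0.011 without single lines. Relative to the median of all genes in each setting, ANGEL2 stayed above 0 with median-ratio scaling, DESeq2 and no filter, and PDE12 stayed below 0 with spike-in scaling (−0.052) and limma (−0.036 and −0.046). Without single lines the GST construct, fitted against 0 or 1 read a line and so no bound, gave −8.99 to −6.80 and the NOCT construct 3.41 to 4.03. The GST call was lost without GST line 2 or 9 or NOCT line 4 or 11, and that of the NOCT construct without GST line 2, 8 or 9 or NOCT line 4 or 11.

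The count of all genes called, 10, was 22 with spike-in scaling, 508 with DESeq2, 888 with no filter and 37 with the neighbours' level removed. Leaving out single lines gave 0 (without GST line 9, with 1420 at an unadjusted p under 0.05) to 893 (without NOCT line 12). It was 5 without GST line 2, 6 without GST line 8 and 1 without NOCT line 11. The causes were not tested. Among the lists, leaving out single lines gave 0 to 1 called gene for other EEP-fold enzymes (SYNJ2, adjusted p = 0.0495, edgeR) and 0 to 1 for RNA ends and 2-5A (RTCB, adjusted p = 0.0402), both without NOCT line 12. No paired analysis was made because the lines are separate clones and no pairing between the groups is given. NOCT and the construct rows had 0 to 88 reads a library, which limits their precision.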
